A study of Mus musculus with 6 samples.

Results

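Of the 18460 genes listed for these breast tumors, 32 are genes of white and brown adipocytes, and they were chosen by name: 27 white or shared fat genes and 5 brown fat genes (*Ucp1*, *Cidea*, *Elovl3*, *Ppargc1a* and *Dio2*). The rule uses gene names and no measured value, but the members were chosen with earlier results of these data known. All 32 symbols were matched to an NCBI Gene identifier and 31 were listed in at least 1 tumor, while *Cpt1b*, the mitochondrial carnitine acyltransferase of muscle and brown fat, was listed in none of the 6 files and entered as 0.

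Total RNA of 6 breast tumors, each from a separate Balb/c mouse, was sequenced, 3 in the test group (K14-TSLPtg;PyMTtg;Rag1KO) and 3 in the control group (PyMTtg;Rag1KO). Mice of both groups carried the PyMT transgene, which gives rise to spontaneous mammary tumors, lacked *Rag1* and so had no T or B cells of their own, and were given CD4+ T cells by injection when 4 weeks old. Tumors were taken at 18 to 20 weeks. The groups differed by the TSLP transgene, which the K14 promoter drives in keratinocytes. The libraries are of whole tumor tissue, in which fewer cells of a type and less RNA per cell cannot be told apart. The libraries held from 8373390 to 9449565 expected counts, and the 10 highest genes held 5.9% to 10.1% of them. *Tslp* itself was counted at 2, 2 and 3 in control replicates 1, 2 and 3 and at 12, 7 and 2 in test replicates 1, 2 and 3, so that test replicate 3 did not exceed the controls and this gene does not check its label. *Rag1* had 27, 4 and 10 counts in the control and 6, 12 and 9 counts in the test tumors, and since the part of the gene removed by the knockout is not given in the sources used here, these reads check nothing. Throughout, values are given in the order of replicates 1, 2 and 3, and levels are in FPKM, the deposited measure of fragments scaled to transcript length and sequencing depth.

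White adipocytes store triglyceride in a single large lipid droplet coated by perilipins and CIDE proteins, release fatty acids from it through lipases, and secrete adipokines such as adiponectin. Brown adipocytes hold many small droplets and burn fat in mitochondria uncoupled by UCP1. PPARγ with C/EBPα drives the differentiation of both, and the mammary gland lies embedded in a white fat pad, while brown fat and skeletal muscle share many genes of fatty acid oxidation.

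White and shared fat genes were more abundant in 2 of the 3 test tumors, most of all in test replicate 1, and at control level in test replicate 3. Summed over the 27 white and shared genes, the level was 162.6, 247.6 and 211.8 FPKM in the control tumors and 1128, 395.6 and 170.1 FPKM in the test tumors. Test replicates 1 and 2 lay above every control tumor, and test replicate 3 lay among the controls. The group means differed by 1.45 on the log2 scale, and by 0.45 without test replicate 1.

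No member passed the test between groups. By the quasi-likelihood test of edgeR, with p-values adjusted after Benjamini and Hochberg over 13706 genes, 0 of the 21 members that passed the filter on low counts reached an adjusted p of 0.05, as did 0 of all genes (0.0%). At an unadjusted p under 0.05 there were 4 members (*Cfd*, *Adipoq*, *Fabp4* and *Acsl1*), all higher in the test group, where 8.41% of all genes reached that p and 3.15% did so as higher in test. DESeq2 called 1 member at an adjusted p of 0.05, *Adipoq*, and 313 genes in all (2.28%), and limma-trend on log2(FPKM + 1) called 1 gene, no member. The 21 tested members comprised 17 with a log2 fold change above 0 and 4 below, with a median of 1.02, while 51.5% of all tested genes were above 0 with a median of 0.02. *Adipor2* alone had groups that did not overlap in counts scaled to library size (CPM), with test higher, as had 6.12% of all tested genes.

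Test replicate 1 held the highest FPKM for 21 of the 31 listed members, against 21.5% of the 12890 genes with a mean of at least 1 FPKM. Only 23 members reached that mean, and the member counts here include the others, so the 2 sides are not filtered alike. Test replicate 2 was highest for 3 members, test replicate 3 for 1, control replicate 3 for 5, control replicate 2 for 1 and control replicate 1 for none. Of the 31 members, 23 in test replicate 1, 16 in test replicate 2 and 3 in test replicate 3 exceeded the highest control tumor, for which the shares of all those genes were 29.3%, 28.7% and 22.5%. In 17 members exactly 2 test tumors exceeded the highest control, and in none did all 3, compared with 15.5% and 5.21% of all genes. Test replicate 1 had the highest summed FPKM in every role of the heat map of members.

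**Figure D1:**
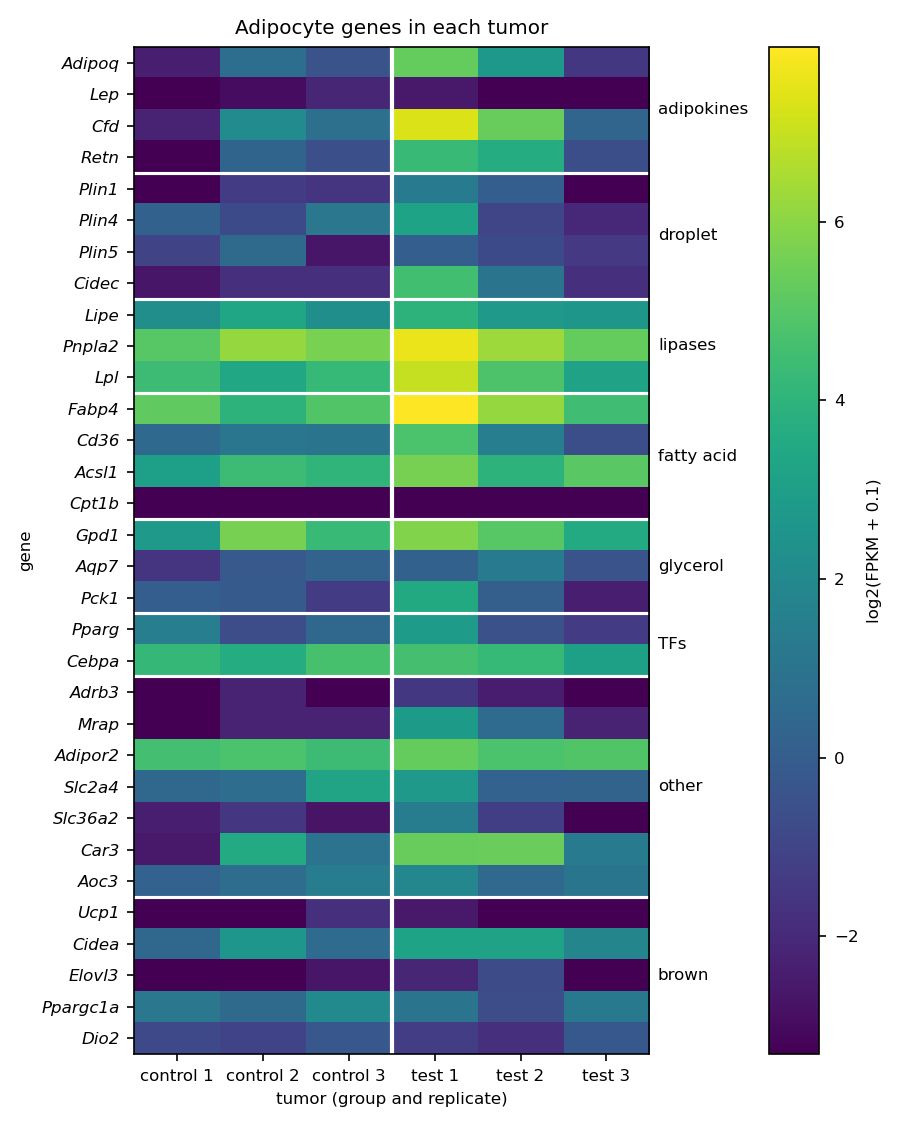
Level of the 32 adipocyte genes (one line each, grouped by role on the right) in the 6 tumors (columns), as log2(FPKM + 0.1) by color, with the white line between control and test. Test replicate 1 is highest for 21 of the 31 listed genes, and *Lep* and *Ucp1* are dark in every tumor. *Cpt1b* was listed for no tumor and is drawn at 0, which is not a measured level.

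The upstream sequences of 4 members are shown. They contrast 2 genes high in test replicate 1 (*Cidec* and *Adipoq*) with the adipokine gene *Lep* and the brown fat gene *Ucp1*, which were nearly silent. Each is the 250 bases before an annotated start site in RefSeq on GRCm38.p6, written 5′ to 3′ on the gene's strand, with capitals for the C/EBP-type letters TTGCNNAA or the nuclear receptor half-site letters AGGTCA. *Cidec* has 2 such windows, chr6:113435761-113436010 before the 5′ end of the gene and chr6:113434765-113435014 before a start site inside it (both minus strand). The others lie at chr16:23146286-23146535 (plus, *Adipoq*), chr6:29059971-29060220 (plus, *Lep*) and chr8:83290098-83290347 (plus, *Ucp1*).
Cidec, 5′ end: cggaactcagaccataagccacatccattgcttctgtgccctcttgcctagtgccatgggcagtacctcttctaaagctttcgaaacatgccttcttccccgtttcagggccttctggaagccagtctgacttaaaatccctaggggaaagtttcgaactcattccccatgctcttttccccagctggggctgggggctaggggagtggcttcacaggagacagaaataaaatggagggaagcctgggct
Cidec, internal start: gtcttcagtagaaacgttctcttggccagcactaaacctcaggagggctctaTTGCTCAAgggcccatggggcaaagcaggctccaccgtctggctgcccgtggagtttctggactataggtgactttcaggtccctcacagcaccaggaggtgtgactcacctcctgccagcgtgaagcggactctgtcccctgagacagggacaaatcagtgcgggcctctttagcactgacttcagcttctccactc
Adipoq: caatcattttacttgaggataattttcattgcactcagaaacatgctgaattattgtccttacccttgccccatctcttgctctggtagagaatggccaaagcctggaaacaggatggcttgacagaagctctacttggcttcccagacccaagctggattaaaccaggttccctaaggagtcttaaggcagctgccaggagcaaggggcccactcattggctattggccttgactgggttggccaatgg
Lep: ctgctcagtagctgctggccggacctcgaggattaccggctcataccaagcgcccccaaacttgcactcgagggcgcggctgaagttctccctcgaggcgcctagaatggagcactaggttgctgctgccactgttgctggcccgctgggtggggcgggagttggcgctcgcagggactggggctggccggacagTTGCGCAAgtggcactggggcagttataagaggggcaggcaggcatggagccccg
Ucp1: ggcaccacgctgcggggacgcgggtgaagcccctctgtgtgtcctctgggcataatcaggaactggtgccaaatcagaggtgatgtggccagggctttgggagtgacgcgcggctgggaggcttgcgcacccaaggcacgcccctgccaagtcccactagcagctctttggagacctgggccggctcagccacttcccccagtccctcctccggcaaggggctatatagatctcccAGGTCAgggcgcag
A window was given for 20 of the 32 members, 27 windows in all. TTGCNNAA, searched on both strands, was in the windows of 5 of these 20 members (*Cidec*, *Dio2*, *Lep*, *Plin1* and *Pparg*), against 10.8% of all 27025 genes with windows. AGGTCA was found for 5 of the 20 (*Aqp7*, *Cd36*, *Plin5*, *Pparg* and *Ucp1*), against 15.8% of genes. A direct repeat of AGGTCA with any 1 base between the copies was found for none, against 0.0407% of genes. A gene with more than 1 window had more chances of a match, and no difference in these shares was tested. The C/EBP-type letters began 198 bases before the internal start site of *Cidec*, while the window before its 5′ end had neither motif, and began 55 bases before the start site of *Lep*, where TTGCGCAA reads as a match on either strand, and the *Ucp1* half-site letters began 14 bases before the start. The *Adipoq* window had neither. A match is a description of letters and not of binding.

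Summed over the 4 adipokines, the level ran from 0.21 FPKM in control replicate 1 to 224.4 FPKM in test replicate 1. *Adipoq*, which encodes adiponectin and is made almost only by adipocytes (chr16:23146536-23157968), was at 0.09, 1.57 and 0.63 FPKM in the control tumors and at 39.49, 6.29 and 0.26 FPKM in the test tumors. Test replicates 1 and 2 were above every control and test replicate 3 lay within them. The log2 fold change was 4.31 with a standard error (SE) of 1.54 and an edgeR adjusted p of 0.506, and DESeq2 gave 4.35 with an adjusted p of 0.0266. Over all alternatives its adjusted p ran from 0.0266 to 1.00. *Cfd*, which encodes the serine protease adipsin of the alternative complement pathway, was at 0.12, 4.21 and 1.70 FPKM in the control and at 164.9, 40.61 and 1.17 FPKM in the test tumors, again with test replicates 1 and 2 apart and test replicate 3 among the controls. Its log2 fold change was 5.10 (SE 1.60, edgeR adjusted p 0.460) and had rank 4 among all tested genes.

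*Retn*, the gene of resistin, was at 0, 1.16 and 0.57 FPKM in the control and 19.93, 12.58 and 0.55 FPKM in the test tumors. It did not pass the filter on low counts, having 97 and 63 counts in test replicates 1 and 2 and at most 6 in any other tumor, and without that filter its log2 fold change was 4.22 (SE 1.29, edgeR adjusted p 0.418). It followed *Adipoq* and *Cfd* in which tumors were high. *Lep*, which encodes leptin, did not, with 0, 1 and 4 counts in the control and 2, 0 and 0 counts in the test tumors, near or under a floor of 3 counts throughout. A tumor with 1251 counts of *Cfd* and 403 of *Adipoq* therefore had 2 of *Lep*.

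Of the lipid droplet proteins, *Cidec* had the largest contrast. CIDEC, also named FSP27, fuses droplets into the single large one of white fat, and its gene was at 0.06, 0.20 and 0.19 FPKM in the control and 23.10, 1.92 and 0.19 FPKM in the test tumors. *Plin1*, the perilipin that guards the droplet of white adipocytes, was at 0, 0.30 and 0.23 FPKM in the control and 2.36, 0.93 and 0 FPKM in the test tumors. Both genes were highest in test replicate 1 and second in test replicate 2, and both failed the filter on low counts. Without it, edgeR gave a log2 fold change of 5.68 (SE 1.52, adjusted p 0.361) for *Cidec* and of 2.58 (SE 1.46, adjusted p 0.708) for *Plin1*. With at most 5 control counts of either gene, these fitted values depend on the prior count of the fit and are no bounds.

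The perilipins shared with muscle behaved otherwise. *Plin4*, which coats nascent droplets, was at 1.02, 0.48 and 2.10 FPKM in the control and 9.17, 0.42 and 0.15 FPKM in the test tumors, so that test replicate 1 was highest and test replicates 2 and 3 were below every control. Its log2 fold change was 1.39 (SE 1.31) with all tumors and -2.03 without test replicate 1. *Plin5*, the perilipin of oxidative tissues, was at 0.39, 1.39 and 0.06 FPKM in the control and 0.92, 0.48 and 0.27 FPKM in the test tumors, with overlapping groups and control replicate 2 highest.

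The lipases were well detected in every tumor. *Lpl*, which frees fatty acids from circulating lipoproteins, was at 21.14, 10.85 and 18.48 FPKM in the control and 126.5, 27.56 and 8.99 FPKM in the test tumors. *Pnpla2*, the adipose triglyceride lipase that starts lipolysis, was at 32.97, 72.14 and 51.68 FPKM in the control and 200.3, 78.57 and 39.22 FPKM in the test tumors. In both, test replicates 1 and 2 were above all controls, *Pnpla2* in test replicate 2 by little, and test replicate 3 was inside or below the control range. *Lipe*, the hormone-sensitive lipase, was at 4.64, 9.94 and 4.88 FPKM in the control and 15.73, 6.51 and 6.16 FPKM in the test tumors, where test replicate 1 alone exceeded control replicate 2. The log2 fold changes of *Lpl*, *Pnpla2* and *Lipe* were 1.65 (SE 0.84), 1.02 (SE 0.56) and 0.50 (SE 0.45).

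Genes of fatty acid binding and uptake followed the adipokines with smaller contrasts. *Fabp4*, the fatty acid binding protein of adipocytes, macrophages and some endothelium, had the highest level of any member in test replicate 1, at 36.78, 15.72 and 29.60 FPKM in the control and 248.7, 73.09 and 22.48 FPKM in the test tumors. Its log2 fold change was 2.03 (SE 0.79, edgeR adjusted p 0.547), and 0.84 without test replicate 1. *Fabp4* was well detected in control replicate 1, where *Adipoq* and *Cfd* were near 0, and the 10 endothelial markers (summed 40.6 to 82.0 FPKM in the control and 59.5 to 69.3 FPKM in the test tumors) and the 10 macrophage markers (535.9 to 1020 and 409.3 to 953.3 FPKM) had overlapping group ranges. The part of those cells in the *Fabp4* level was not tested.

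*Cd36*, a fatty acid transporter, was at 1.34, 2.06 and 1.91 FPKM in the control and 26.87, 2.75 and 0.55 FPKM in the test tumors. The log2 fold change of 2.48 (SE 1.16) turned to -0.06 without test replicate 1. *Acsl1*, which activates fatty acids to acyl-CoA, was at 8.27, 21.27 and 16.58 FPKM in the control and 50.06, 15.82 and 33.64 FPKM in the test tumors. Here test replicate 3, not test replicate 2, was second, and the log2 fold change was 1.12 (SE 0.46, edgeR adjusted p 0.558).

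Genes of glycerol supply and release had overlapping groups. *Gpd1*, which makes glycerol 3-phosphate for triglyceride synthesis, was at 6.79, 49.20 and 19.54 FPKM in the control and 56.35, 32.90 and 11.84 FPKM in the test tumors. *Aqp7*, the channel through which adipocytes release glycerol, was at 0.22, 0.78 and 1.11 FPKM in the control and 1.02, 2.46 and 0.63 FPKM in the test tumors, highest in test replicate 2. *Pck1*, the cytosolic PEPCK that supplies glycerol carbon in fasting fat, was at 0.93, 0.81 and 0.29 FPKM in the control and 11.29, 0.97 and 0.09 FPKM in the test tumors. Their log2 fold changes were 0.45 (SE 0.73), 1.00 (SE 0.76) and 2.52 (SE 1.37).

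Of the transcription factors, *Pparg* exceeded the controls in test replicate 1 alone and *Cebpa* in no tumor. *Pparg*, the master regulator of fat cell differentiation, was at 2.74, 0.54 and 1.25 FPKM in the control and 7.15, 0.59 and 0.29 FPKM in the test tumors, highest in test replicate 1 and lowest in test replicate 3. *Cebpa*, its partner, was at 18.26, 12.39 and 25.43 FPKM in the control and 24.49, 18.97 and 8.54 FPKM in the test tumors, with control replicate 3 highest and overlapping groups. The log2 fold changes were 0.74 (SE 1.16) and -0.10 (SE 0.43). In test replicate 2, *Pparg* was thus at a control level while *Adipoq*, *Cfd* and *Retn* were above all controls.

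Among receptors, transporters and other members, *Mrap*, the accessory protein of the ACTH receptor that adipocytes express, was at 0, 0.12 and 0.11 FPKM in the control and 6.99, 1.43 and 0.11 FPKM in the test tumors, the tumor order of *Cidec*. *Slc36a2*, a proton-coupled amino acid transporter, was at 0.09, 0.24 and 0.05 FPKM in the control and 2.54, 0.33 and 0 FPKM in the test tumors. Neither passed the filter on low counts, and without it edgeR gave log2 fold changes of 4.97 (SE 1.49, adjusted p 0.415) and 2.89 (SE 1.46, adjusted p 0.675). *Adrb3*, the beta-3 adrenergic receptor that triggers lipolysis in mouse fat, had 0, 3 and 0 counts in the control and 6, 2 and 0 counts in the test tumors, too few for a fold.

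*Car3*, the carbonic anhydrase abundant in white fat and slow muscle, was at 0.07, 11.67 and 1.87 FPKM in the control and 40.17, 41.02 and 2.42 FPKM in the test tumors, close in test replicates 1 and 2. Its log2 fold change was 2.68 (SE 1.39), and 4.86 without control replicate 2, when its groups no longer overlapped. *Slc2a4*, the insulin-responsive glucose transporter GLUT4, was at 1.30, 1.54 and 9.65 FPKM in the control and 6.78, 1.06 and 1.12 FPKM in the test tumors, with control replicate 3 highest and a log2 fold change of -0.48 (SE 0.97). *Aoc3*, a vascular and adipocyte amine oxidase, was at 1.07, 1.53 and 2.57 FPKM in the control and 3.68, 1.36 and 2.02 FPKM in the test tumors (log2 fold change 0.45, SE 0.48). *Adipor2*, an adiponectin receptor found in many tissues, was at 24.26, 27.33 and 21.23 FPKM in the control and 38.92, 26.89 and 29.42 FPKM in the test tumors. Its log2 fold change was 0.39 (SE 0.24, edgeR adjusted p 0.703), and although its CPM did not overlap, its FPKM did, by test replicate 2 against control replicate 2.

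The plot of fold changes sets all tested members beside the values without test replicate 1. Leaving out that tumor took the count of tested members above 0 from 17 of 21 to 11 of 21 and the median of the white and shared genes from 1.07 to 0.09, with the median of all genes at 0.02 and -0.01. *Plin4*, *Lipe*, *Cd36*, *Gpd1*, *Pck1* and *Pparg* changed sign. *Cfd* (3.47), *Car3* (2.37) and *Adipoq* (2.18) were then the highest members. *Plin4* was the single member at an unadjusted p under 0.05, lower in test, against 7.8% of genes, and groups without overlap were found for 1 member with test higher (12.2% of genes) and 2 with test lower (11.9%).

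**Figure D2:**
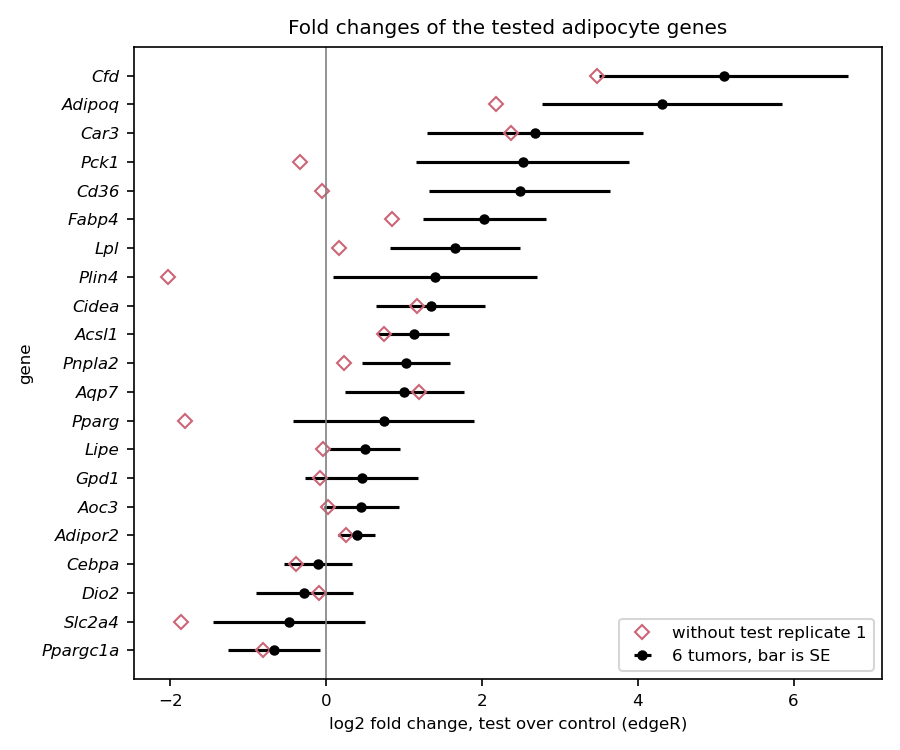
Log2 fold change of test over control for the 21 members tested with edgeR, with all 6 tumors (black points, bars are SE) and without test replicate 1 (open diamonds). *Cfd* and *Adipoq* are highest with 5.10 and 4.31, and *Plin4* moves from 1.39 to -2.03 when that tumor is left out.

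Leaving out test replicate 3 had the opposite effect. With a tumor left out, the filter asks for expression in 2 tumors and admits members such as *Retn*, *Plin1*, *Cidec* and *Mrap* through test replicates 1 and 2, where they are high, so the counts here are over the 21 members and 13706 genes that passed it with all tumors. Without test replicate 3, 10 of the 21 members had groups that did not overlap with test higher and 1, *Dio2*, with test lower, where 11.8% and 10.8% of the genes did so. Of the same members, 8 had an unadjusted p under 0.05, all higher in test, against 3.25% of genes. Test replicate 3 was the test tumor with the fewest members above the highest control (3 of 31). The counts without it therefore restate that pattern and add no separate support. No gene reached an adjusted p of 0.05 by edgeR in that fit, and the lowest adjusted p of a member was 0.630. Without control replicate 2, whose *Adipoq*, *Cfd* and *Car3* were the highest of the controls, 5 of the 21 members had an unadjusted p under 0.05, all higher in test, where 5.03% of genes did so, 5 had groups without overlap, where 16.2% of genes had test higher, and 182 genes but no member reached an adjusted p of 0.05 by edgeR. Without test replicate 2, 2 members (*Acsl1* and *Adipor2*) had groups without overlap, both higher in test, as had 11.4% of genes. The shares of genes beside these counts were added after the values were seen.

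Without any filter on low counts, 24 of the 31 listed members were above 0 and 7 below. The median was 1.39 over the 26 white and shared genes and 0.03 over all 18446 genes in that fit. At an unadjusted p under 0.05 there were 8 members, all white or shared and higher in test (*Cidec*, *Cfd*, *Mrap*, *Retn*, *Adipoq*, *Fabp4*, *Acsl1* and *Cd36*), against 3.07% of all genes higher in test.

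The 5 brown fat genes made up a small part of the summed FPKM of both lists. That share sets 5 genes against 27 white or shared genes, so its size depends on the lists and does not measure brown against white fat. The 5 genes summed to 3.9, 7.73 and 6.47 FPKM in the control and 11.61, 10.23 and 6.44 FPKM in the test tumors. That was 2.34%, 3.03% and 2.96% of the sum of white and brown genes in the control tumors and 1.02%, 2.52% and 3.65% in the test tumors. The lowest share was in test replicate 1, the tumor with most white fat transcripts, and the groups overlapped. Test replicates 1 and 2 had the 2 highest brown sums, by a smaller margin than the white sums.

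*Ucp1*, the uncoupling protein that defines brown and beige adipocytes (chr8:83290348-83298456), had 0, 0 and 3 counts in the control and 1, 0 and 0 counts in the test tumors. *Elovl3*, the fatty acid elongase induced in cold-exposed brown fat, had 0, 0 and 1 counts in the control and 2, 8 and 0 counts in the test tumors. With *Ucp1* at no more than 3 counts in any tumor, including the one with 403 *Adipoq* counts, the brown list was represented by its shared members.

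*Cidea*, a droplet protein of brown fat that lactating mammary epithelium also expresses, supplied 33.9%, 77.1% and 22.3% of the brown sum in the control and 78.8%, 88.0% and 53.0% in the test tumors. It was at 1.32, 5.96 and 1.44 FPKM in the control and 9.15, 9.00 and 3.41 FPKM in the test tumors, above the controls in test replicates 1 and 2 and between them in test replicate 3. Its log2 fold change was 1.34 (SE 0.70, edgeR adjusted p 0.674). The 10 mammary epithelial markers were also highest in the test tumors and in control replicate 2, summing to 1337, 2960 and 1357 FPKM in the control and 3774, 3583 and 3589 FPKM in the test tumors. All 10 of 10 were higher in test and none was at 0 in any tumor. At an unadjusted p under 0.05 there were 3 and without overlap 4, where 3.15% and 6.12% of all tested genes were higher in test. The part of the epithelial markers in the *Cidea* level was not tested.

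*Ppargc1a*, the coactivator of mitochondrial biogenesis, was at 2.12, 1.39 and 4.03 FPKM in the control and 1.94, 0.54 and 2.26 FPKM in the test tumors. *Dio2*, the deiodinase that activates thyroid hormone in brown fat, was at 0.46, 0.38 and 0.74 FPKM in the control and 0.32, 0.20 and 0.77 FPKM in the test tumors. Both had overlapping groups, with log2 fold changes of -0.67 (SE 0.59) and -0.28 (SE 0.62). The median of the 3 tested brown genes was -0.28, below the 1.07 of the white and shared genes, and it was 1.34 when the genes also known from muscle or heart were left out, which leaves *Cidea* alone. No test compared the white with the brown list.

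**Figure D3:**
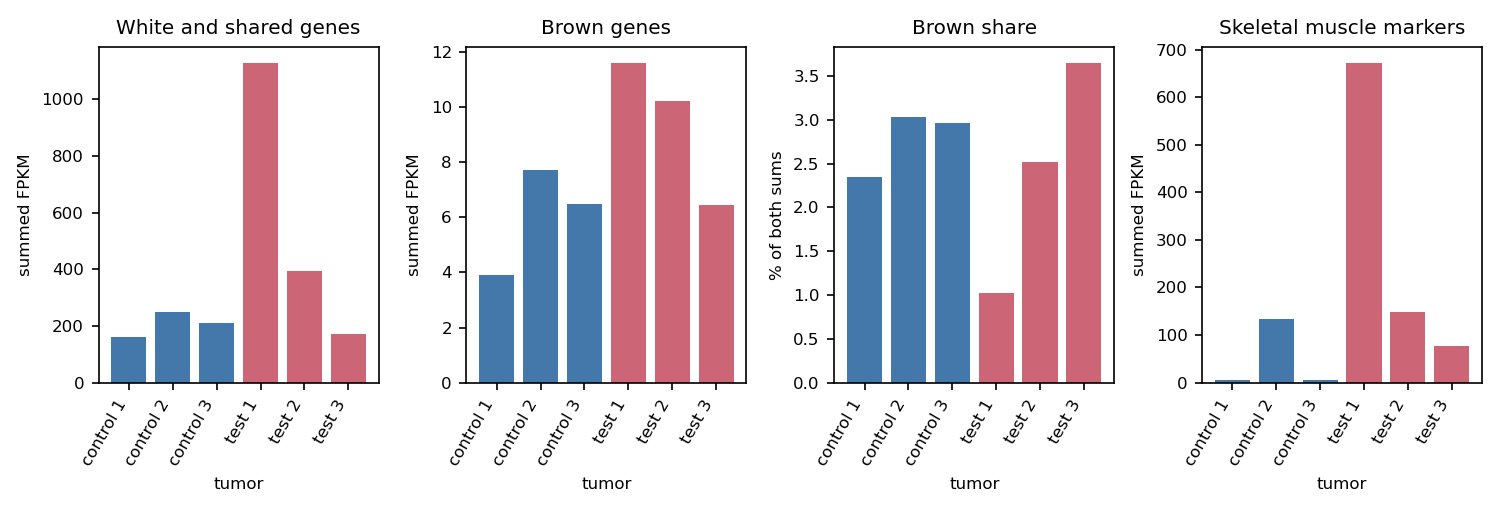
Summed FPKM per tumor of the white and shared genes, of the brown genes, the brown share in percent of both sums, and the summed FPKM of 14 skeletal muscle markers, with bars for single tumors (blue control, red test). Test replicate 1 is highest in both fat sums and in the muscle sum (1128, 11.61 and 672.1 FPKM) and lowest in the brown share (1.02%).

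Skeletal muscle transcripts moved with the fat transcripts in part. The 14 muscle markers summed to 5.42, 133.3 and 4.6 FPKM in the control and 672.1, 148.9 and 76.17 FPKM in the test tumors. *Ckm*, the muscle creatine kinase, was at 0 in control replicate 1 alone. A log2 fold change above 0 was found for 14 of 14, with a median of 2.81. At an unadjusted p under 0.05 there were 2, where 3.15% of all tested genes were higher in test, and none lacked overlap, against 12.0% of all tested genes in either direction. The part of the muscle markers in the fat genes was not tested. Of the members, 12 are also known from skeletal muscle or heart, among them *Cd36*, *Lpl*, *Pnpla2*, *Plin4*, *Plin5*, *Acsl1*, *Car3* and *Slc2a4*. Without these, the 17 other white genes summed to 71.8, 98.9 and 88.3 FPKM in the control and 628.0, 201.0 and 54.3 FPKM in the test tumors, with test replicate 3 below every control, and the group means differed by 1.77 on the log2 scale. Test replicate 3 had 76.17 FPKM of muscle markers, above control replicates 1 and 3 (5.42 and 4.6 FPKM) and below control replicate 2 (133.3 FPKM). Its sum over all white and shared genes also lay among the controls.

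The 2 test tumors with high fat transcripts differed in which genes were high. The ratio of test replicate 1 to test replicate 2, in counts scaled to library size, was computed for the 27 members with at least 4 counts in both, and its 95% interval, from the exact binomial method and for counting error alone, lay above 1 for 22 members, below 1 for 1 and included 1 for 4. It was 0.385 for *Aqp7* (interval 0.223 to 0.643), 0.899 for *Car3* (0.795 to 1.02), 0.934 for *Cidea* (0.688 to 1.27) and 1.45 for *Retn* (1.05 to 2.03). It was 3.12 for *Fabp4* (2.79 to 3.51), 3.73 for *Cfd* (3.29 to 4.23), 5.77 for *Adipoq* (4.44 to 7.60), 11.1 for *Cidec* (7.52 to 16.9) and 20.1 for *Plin4* (13.0 to 32.8). The intervals of *Aqp7*, *Fabp4*, *Cidec* and others did not overlap, so that, with counting error alone, the adipocyte genes did not differ between these tumors by one common factor. The ratio was not computed over all genes, so these counts have no share beside them and are not shown to be particular to the members. With 1 tumor each the ratio compares these libraries and not a condition. The muscle markers spanned a like range, from 0.907 for *Pvalb* to 23.4 for *Atp2a1*, with the interval above 1 for 12 of 14.

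**Figure D4:**
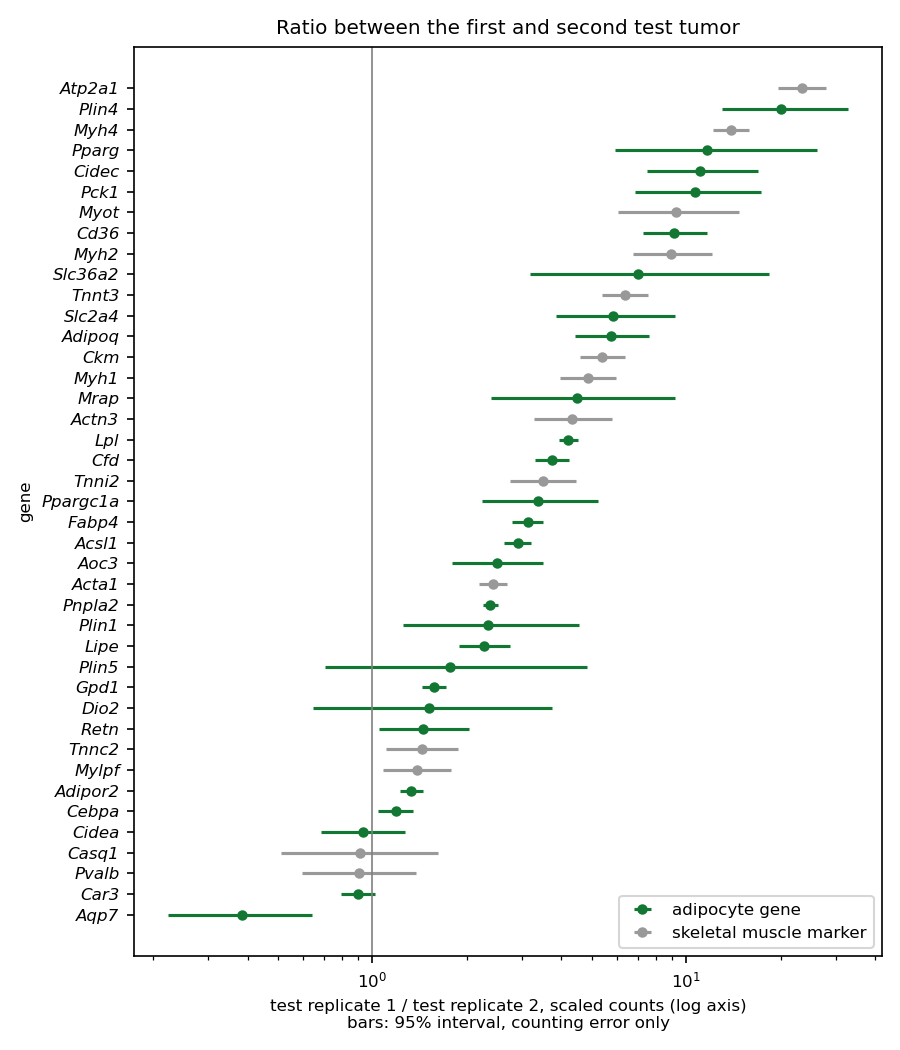
Ratio of test replicate 1 to test replicate 2 in scaled counts (log axis) for 27 adipocyte genes (green) and 14 skeletal muscle markers (gray), with 95% counting intervals as bars. Values run from 0.385 for *Aqp7* to 20.1 for *Plin4* among the adipocyte genes, and the vertical line marks equal levels.

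Other genes of adipocyte biology, taken as a fixed list of 61 that are no members, were split in direction. Of 53 tested, 30 had a log2 fold change above 0 and 23 below, with a median of 0.13, and 0 reached an adjusted p of 0.05 by edgeR. At an unadjusted p under 0.05 there were 4 higher and 3 lower, against 3.15% and 5.26% of all tested genes. Without overlap there were 3 higher and 3 lower, against 6.12% and 5.86% of all tested genes. Named by their rank in the list, the 5 highest were *Cyp2e1* (log2 fold change 4.00), *Nnat* (3.31), *Apoc1* (2.53), *Adig* (2.12) and *Klf15* (1.82), and the 3 lowest were *Aldh1a7* (-3.35), *Npr3* (-2.03) and *Sncg* (-2.03). *Cyp2e1*, a cytochrome P450 of liver and fat, was at 0.91, 3.08 and 1.13 FPKM in the control and 71.25, 9.66 and 2.49 FPKM in the test tumors, and *Adig*, the adipocyte membrane protein adipogenin, at 0.51, 1.05 and 2.41 FPKM and at 9.88, 5.26 and 2.15 FPKM. Both had the tumor order of *Adipoq* among the test tumors, and so had *Apoc1* (91.25, 48.48 and 3.47 FPKM there). *Nnat* and *Klf15* had not. *Nnat* was at 0, 0.80 and 0.20 FPKM in the control and 1.48, 5.98 and 1.88 FPKM in the test tumors. *Klf15* was at 1.74, 1.95 and 2.39 FPKM in the control and 20.68, 0.71 and 0.78 FPKM in the test tumors. *Aldh1a7*, an aldehyde dehydrogenase, was at 12.53, 17.13 and 3.97 FPKM in the control and 0.92, 1.41 and 0.92 FPKM in the test tumors, with groups apart (edgeR adjusted p 0.394). Of 24 other brown or beige genes, 16 were tested, 9 above and 7 below 0 with a median of 0.31, and 0 reached an adjusted p of 0.05 by edgeR. At an unadjusted p under 0.05 there was 1, *Acot11* (log2 fold change -1.62), where 5.26% of all tested genes were lower at that p. The 10 preadipocyte and fibroblast markers summed to 158.3, 381.2 and 240.9 FPKM in the control and 320.8, 627.2 and 265.0 FPKM in the test tumors. The sum was highest in test replicate 2, where *Col1a1* supplied 404.25 FPKM, while *Dcn* and *Dpp4* were highest in test replicate 1. Of 9 tested, 7 were above 0 and 2 below. *Zfp423* alone had no overlap, at 11.02, 4.13 and 5.32 FPKM in the control and 0.72, 1.75 and 1.09 FPKM in the test tumors, where 5.86% of all tested genes had test lower.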

How the data were processed

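RNA sequencing of 6 breast tumors was analyzed. Per the paper, libraries were made and sequenced at BGI on Illumina HiSeq and reads were aligned to mm10 with Bowtie. The submitters' processing notes also name BWA and RSEM, with no versions. The authors deposited for each gene and tumor an expected count, not normalized and fractional where reads were shared between genes, an FPKM normalized by the authors for length and depth, and a gene length. Of the listed expected counts, 79.0% to 80.1% were whole numbers. Genes not listed for a tumor were set to 0. Genes were named through NCBI Gene identifiers in a RefSeq table of GRCm38.p6 (18400 of 18460 matched).

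Expected counts were rounded, filtered with filterByExpr, scaled by TMM and tested for 3 test against 3 control tumors with edgeR's quasi-likelihood test (4.0.16, R 4.3.3), without covariates and with Benjamini-Hochberg adjustment over all genes. The SE is the log2 fold change divided by the square root of F. Alternatives were RLE scaling, DESeq2 1.42.0, no filter, a minimum of 10 counts per tumor, limma-trend 3.58.1 on log2 FPKM with 1 or 0.1 added, the replicate number as a block, lists without muscle or heart genes, and leaving out each tumor. Leaving out tumors for the summed FPKM, for the shares of genes (over those passing the filter with all tumors), and the values of unfiltered members were added after the values were seen. The fit was tested on simulated data. Per tumor, 3 counts (0.317 to 0.358 CPM) were taken as the detection floor, for counting error alone.

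The members and lists were chosen with earlier results of these data known. All members are named, and of the other adipocyte genes the 5 highest and 3 lowest log2 fold changes. *Acot11*, the single brown or beige gene at an unadjusted p under 0.05, was named after its value was seen. So were *Zfp423*, *Col1a1*, *Dcn* and *Dpp4* among the preadipocyte and fibroblast markers. Groups come from the sample labels. The method the authors used for differential expression of these tumors is not given in the sources used here. Protein sequences were not used here, and *Fabp4* had no promoter window in the table used.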

Additional observations from a re-analysis of the deposited data

How the results depend on the processing

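Counts of called genes depended on the tool and on 1 tumor. Genes at an adjusted p of 0.05 numbered 0 by edgeR, 313 by DESeq2 and 1 by limma-trend on log2(FPKM + 1), and 0 to 182 when a tumor was left out, 182 without control replicate 2. Called members numbered 0, and 1 by DESeq2, and 0 each time a tumor was left out. Members without overlap numbered 1 in CPM and 0 in FPKM, where 5.21% of genes had every test tumor above the highest control. The constant added to the FPKM cannot change an overlap, so the FPKM count is a single comparison. When a tumor was left out, members without overlap numbered 1 to 15 (15 without test replicate 3, 5 without control replicate 2, 3 without test replicate 1 and 2 without test replicate 2). Of the 15, 11 had passed the filter with all tumors, 10 with test higher and 1 with test lower, where 11.8% and 10.8% of genes did so. With test higher, the shares of genes were 16.2% without control replicate 2, 12.2% without test replicate 1 and 11.4% without test replicate 2, and with test lower 11.9% without test replicate 1. Members at an unadjusted p under 0.05 numbered 4 of 21, where 1153 of 13706 genes reached it. They numbered 8 of 31 with no filter (1482 of 18446 genes) and 7 of 21 by DESeq2 (1385 of 13706 genes). With at least 10 counts they numbered 2 of 14 (1016 of 12188 genes). By limma-trend they numbered 2 of 23 with 1 or 0.1 added (930 and 914 of 12890 genes). When a tumor was left out they numbered 1 to 12, counting members that the filter then admits. The 12 came without test replicate 3, and 8 of them had passed the filter with all tumors, all higher in test, where 3.25% of genes were. The white median of 1.07 ran from 0.09 (without test replicate 1) to 1.97 (without test replicate 3), was 0.50 with at least 10 counts in every tumor, and was above 0 in every alternative. The log2 ratio of the white sums ran from 0.45 to 1.88.

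The brown median of -0.28 was 0.36 and 0.39 by limma-trend with 1 or 0.1 added to the FPKM, 1.34 without muscle or heart genes, and -0.998 to 0.055 when a tumor was left out. The brown log2 ratio of 0.64 was 0.24 as a mean of logs, 1.31 without muscle or heart genes, and 0.41 to 0.86 when a tumor was left out. The causes were not tested. Of 138 values of single members under the other alternatives, 133 kept their direction and side of the threshold, 1 passed it and 4 turned sign, *Plin4* and *Pparg*, to -0.082 and -0.11 on log2(FPKM + 0.1) and to -0.10 and -0.083 with the replicate block. Leaving out a tumor turned 11 of 126 values. The lower bound came without test replicate 1 for *Plin4* (-2.03 to 2.01), *Lipe* (-0.042 to 0.89), *Cd36* (-0.055 to 3.05), *Gpd1* (-0.083 to 1.36), *Pck1* (-0.34 to 3.11), *Pparg* (-1.81 to 1.57), *Cebpa* (-0.39 to 0.24) and *Slc2a4* (-1.86 to 1.02), and without test replicate 3 for *Dio2* (-0.998 to 0.055). *Cebpa* was above 0 without control replicate 3 or test replicate 3, *Slc2a4* without control replicate 3, and *Dio2* without control replicate 3 or test replicate 2.

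The groups share replicate numbers but not mice, and same-numbered tumors did not deviate together (correlations -0.03, 0.112 and -0.138). With the replicate block, 0 genes and 0 members were called. Of 21 members, 1 instead of 4 then had an unadjusted p under 0.05, where 1056 of 13706 genes did instead of 1153. The medians with the block were 0.84 for white and -0.44 for brown genes. At these depths a gene with under 3 counts, as *Lep* and *Ucp1* in most tumors, cannot be ranked between tumors.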
